A study of Mus musculus with 12 samples.

Results

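The comparison described here set mouse embryonic stem cells that carried a dox-inducible Tcf15-E47 construct and received dox for 12 h against the same line without dox. It rests on 4 of the 12 arrays of the study, 2 at 12 h and 2 at 0 h, taken by their labels. All cells were of the E14tg2a line of strain 129/P2 and grew in GMEM with LIF and FCS, and dox was given at 1 µg/mL. The other arrays held the Tcf15-E47 line after 8 and 24 h of dox and the parental line, without the construct, after 0 and 8 h, with 2 arrays per group. No parental sample had 12 h of dox, so the 12 h response has no control for dox alone at that time. The labels do not say that the duplicates came from separate cultures or how many clones the inducible line stands for, so the p-values measure the spread between these samples only.

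The factor Tcf15 belongs to the basic helix-loop-helix (bHLH) family, whose tissue-restricted members bind DNA at short E-box motifs as dimers with an E protein such as E47, which is one of the proteins made from the gene Tcf3. Id proteins lack the DNA-binding region, pair with E proteins and so keep them off DNA. In embryonic stem cells, Nanog, Klf and Esrrb-type factors hold the naive state, and Otx2, Fgf5 and Pou3f1 are associated with the step towards the primed epiblast.

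Expression was measured on Illumina BeadChips and is given as normalized log2 intensity. Genes were tested with limma on all 12 arrays, and a gene was called at a Benjamini-Hochberg adjusted p under 0.05. The median signal was 93.59 and 88.98 units on the 0 h arrays and 95.4 and 94.5 units on the 12 h arrays. Of all probes, 33.32% and 34.68% were detected at 0 h and 30.7% and 33.03% at 12 h. Replicate arrays correlated at 0.9962 at 0 h and 0.9966 at 12 h across probes, which are not independent. Pou5f1, the core factor of pluripotent cells, lay between 11.84 and 12.17 on the 4 arrays. Of markers of other cells, 4 of 13 fibroblast and smooth muscle genes and 1 of 9 blood cell genes were bright enough to test. So were 3 of 8 endothelial genes. Of the 8 tested, 0 were called at 12 h against 0 h, beside 7.74% of all genes tested. The summed linear level of the 4 fibroblast and smooth muscle markers was 220.2 and 219.1 at 0 h and 230.1 and 252.6 at 12 h, and that of the 3 endothelial markers was 310.2 and 338.1 at 0 h and 360.3 and 362.8 at 12 h.

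After 12 h of dox, 781 of 10093 genes tested were called, which is 7.74%. Of these, 307 rose (3.04%) and 474 fell (4.7%). The median size of the called differences was 0.493 log2 units among the rises and 0.545 among the falls, and 5 rises and 20 falls exceeded 2-fold. The 4 arrays of every called gene were separated, with both 12 h arrays on one side of both 0 h arrays. Both 12 h arrays lay above both 0 h arrays for 29.6% of all genes tested and below them for 27.8%. Rises made up 39.3% of the calls, and 51.1% when arrays were scaled on their median in place of quantile normalization. That scaling called 214 genes higher and 205 lower. Without 1 array the calls fell to 112 higher and 169 lower (without 0 h replicate 1), 93 and 181 (0 h replicate 2), 58 and 127 (12 h replicate 1) or 97 and 204 (12 h replicate 2). In bulk RNA, fewer cells of a type and less RNA per cell cannot be told apart.

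**Figure D1:**
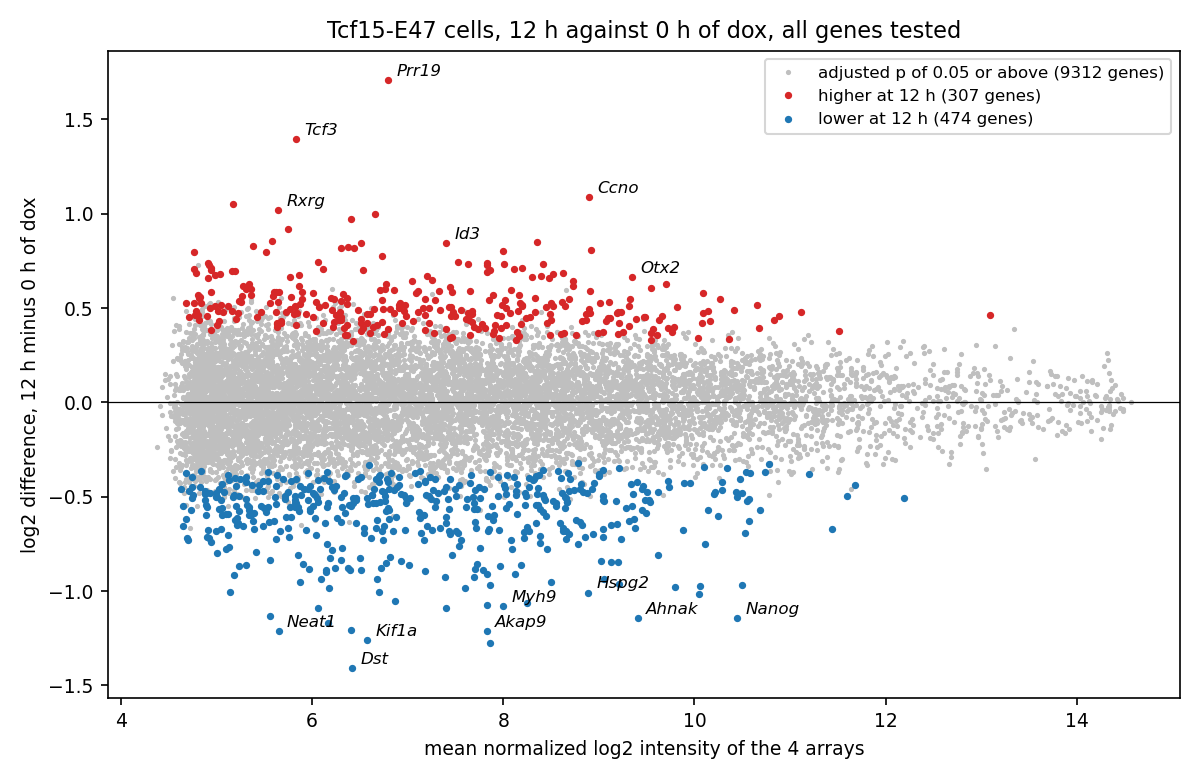
Log2 difference between 12 and 0 h of dox (vertical axis) against the mean normalized log2 intensity of the 4 arrays (horizontal axis) for the 10093 genes tested. Red points are the 307 genes called higher and blue points the 474 called lower, and the rises are led by Prr19 at 1.71 and the falls by Dst at -1.41.

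The 4 genes chosen to mark the comparison moved as follows. Prr19, which encodes a proline-rich protein, read 5.94 and 5.94 on the 0 h arrays and 7.61 and 7.69 on the 12 h arrays. It rose by 1.71 ± 0.10 log2 units (SE, adjusted p = 3.14e-06 from limma), or 3.27-fold, the largest rise among named genes. Its second probe, not well above background at 0 h, was at least 1.39-fold higher at 12 h. Otx2, a homeobox factor of the primed epiblast, read 9.01 and 9.01 at 0 h and 9.70 and 9.65 at 12 h. It rose by 0.67 ± 0.10 (adjusted p = 0.00227 from limma). Nanog, a homeobox factor of naive cells, read 11 and 11.04 at 0 h and 9.82 and 9.94 at 12 h. It fell by 1.14 on the log2 scale (SE 0.09, adjusted p = 6.84e-05 from limma), and its second probe gave -0.92. Dst, a giant linker between cytoskeletal filaments, read 7.33 and 6.92 at 0 h and 5.63 and 5.80 at 12 h. It fell by 1.41 on the log2 scale (SE 0.16, adjusted p = 0.000385 from limma). Its other 3 probes, all not well above background at 12 h, were at least 1.06-, 1.54- and 1.03-fold lower there. The first and last of these were not called (adjusted p = 0.0594 and 0.215 from limma). In all 4 genes the groups did not overlap, which holds for every called gene and so adds no support. Over all genes tested, both 12 h arrays lay above both 0 h arrays in 29.6% and below them in 27.8%.

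**Figure D2:**
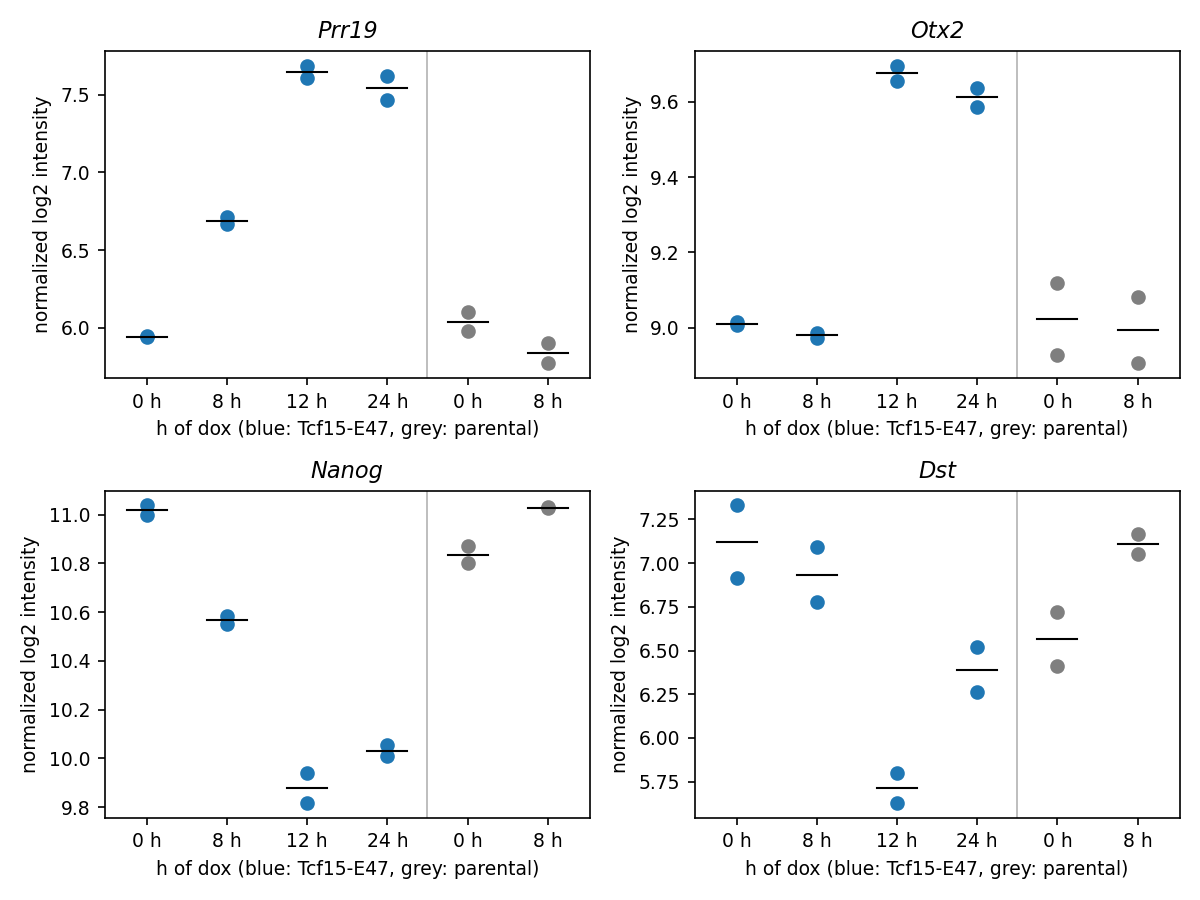
Normalized log2 intensity of Prr19, Otx2, Nanog and Dst on each of the 12 arrays by hours of dox, in Tcf15-E47 cells (blue) and parental cells (grey). Points are arrays and bars are means of 2; each panel has its own vertical range, and Dst is lowest at 12 h while Otx2 is at its 0 h level at 8 h.

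Among the other rises, Tcf3 read 5.06 and 5.19 at 0 h and 6.49 and 6.56 at 12 h, a rise of 1.40 ± 0.20 (adjusted p = 0.00148 from limma). Its second probe, detected on 1 of the 2 arrays at 0 h, gave 0.98. Whether the Tcf3 and Tcf15 probes lie inside the construct is not given in the sources used here, so RNA of the construct and of the cells' own genes cannot be told apart. Tcf15 itself read 9.94 and 9.97 at 0 h and 9.88 and 9.93 at 12 h, a difference of -0.04 (adjusted p = 0.827 from limma). Ccno, a cyclin-like protein that multiciliated cells need to amplify centrioles, rose by 1.09 ± 0.10 from 8.34 and 8.36 to 9.48 and 9.39. Rxrg, a retinoid X receptor, rose by 1.02, and Gm525 by 1.00.

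The 0 h arrays measured Tafa4, a secreted chemokine-like peptide, as not well above background, and its 12 h level was at least 1.79-fold higher. That bound sets the mean of the 12 h arrays against the lowest signal among detected probes at 0 h. The remaining genes among the 15 largest rises lay between 0.80 and 0.97. They were the amino acid transporter Slc43a1 (0.97), the sulfotransferase Chst1 (0.86), the membrane protein Emp1 (0.85), the bHLH inhibitor Id3 (0.85), Ms4a10 (0.84), Tmem145 (0.83), the orphan receptor Gprc5a (0.82), the Rap exchange factor Rapgef5 (0.82) and the dipeptidyl peptidase Dpp4 (0.80). The second probe of Gprc5a was detected on 1 of the 4 arrays, so it gives no fold. That of Rapgef5 gave 0.41 and was not called (adjusted p = 0.157 from limma). Chst1 and Tmem145 lost their call without 0 h replicate 1 or without 12 h replicate 2, with adjusted p-values of up to 0.0737 and 0.0699 from limma. Emp1 lost its call without any 1 of the 4 arrays, with an adjusted p of up to 0.104 from limma.

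After Dst, the falls were led by Kif1a, a kinesin that carries synaptic vesicle precursors. It read 7.14 and 7.27 at 0 h and 5.93 and 5.95 at 12 h and fell by 1.26 on the log2 scale. Its second probe, detected on 1 of the 2 arrays at 12 h, gave -0.48. Akap9, a large scaffold of the Golgi and centrosome, read 8.50 and 8.37 at 0 h and 7.28 and 7.15 at 12 h, and its 2 probes gave -1.21 and -1.20. Neat1, the noncoding RNA that builds nuclear paraspeckles, fell by 1.21, and so did Elavl3, a neuronal RNA-binding protein. The Golgi protein Golgb1 fell by 1.17. Ahnak, a giant membrane-associated scaffold, read 9.92 and 10.04 at 0 h and 8.70 and 8.98 at 12 h and fell by 1.14. Its other 2 probes gave -0.49 and -1.05.

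The noncoding transcripts 2410006H16Rik and Snhg16 fell by 1.09 and 1.07. Myh9, the heavy chain of a nonmuscle myosin, fell by 1.08. A second probe of it, not well above background at 0 h, was detected on 1 of the 2 arrays at 12 h. That probe lay at least 1.09-fold higher at 12 h but was not called (adjusted p = 0.448 from limma). Perlecan, encoded by Hspg2, fell by 1.01, the chromatin regulator Ankrd11 by 0.98 and the WNT antagonist Sfrp1 by 0.97. At 12 h Golga4, another Golgi protein, was not well above background, which makes it at least 1.55-fold lower than at 0 h. Ankrd11 lost its call without 0 h replicate 1 or without 12 h replicate 2 (adjusted p of up to 0.0541 from limma). Apart from Ankrd11, Emp1, Chst1 and Tmem145, the 30 genes were called in the same direction whichever of the 4 arrays was left out. Of the called genes with more than 1 probe, 193 of 213 had every other probe on the same side, and 20 had a probe with the opposite sign. In 79 of the 213, another probe was called too in the same direction. Probes at background in 1 group were counted too.

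**Figure D3:**
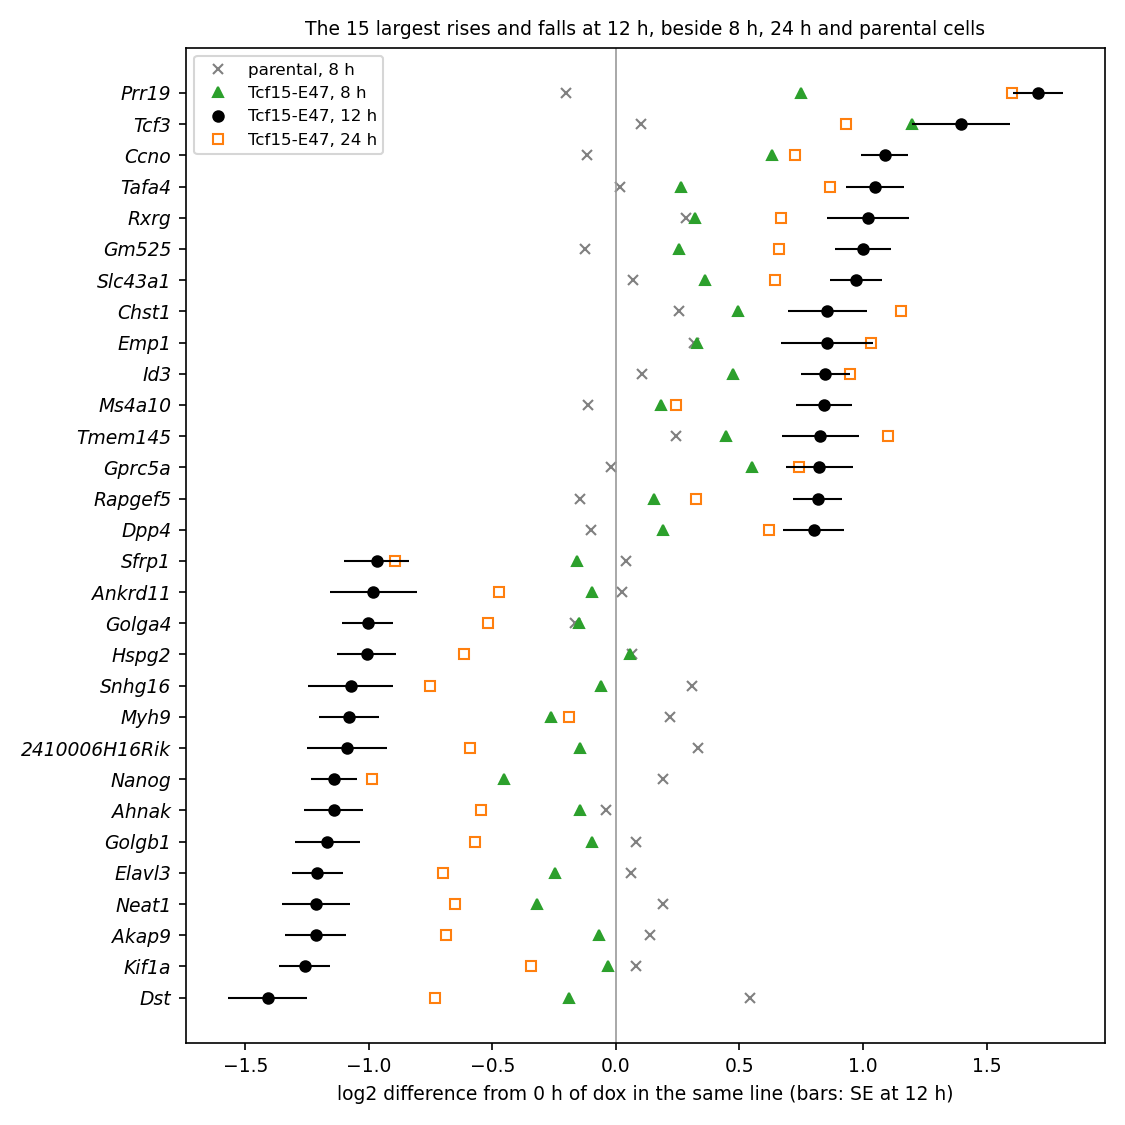
Log2 difference from 0 h of dox for the 15 largest rises and 15 largest falls at 12 h, in Tcf15-E47 cells at 8 h (green), 12 h (black, with SE) and 24 h (orange) and in parental cells at 8 h (grey crosses). Each set of values is taken against the untreated arrays of its own line, and Kif1a moves from near 0 at 8 h to -1.26 at 12 h. Tafa4 at 0 h and Golga4 at 12 h were not well above background, so their points are not exact.

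In the naive pluripotency list, 4 of 16 genes fell and 0 rose, with a median of -0.28 log2 units against 0.01 over all genes tested. Of all genes tested, 4.7% fell and 3.04% rose. Besides Nanog, these were the T-box factor Tbx3, which read 7.10 and 6.89 at 0 h and 6.25 and 6.42 at 12 h (-0.66), and the transcription factors Tfcp2l1 (-0.47) and Nr5a2 (-0.39). Tfcp2l1 and Nr5a2 lost their calls without any 1 of the 4 arrays, and Tbx3 without replicate 1 of either group, so that 1 or 2 of the 16 were called with an array left out. The general pluripotency list held 2 rises and 0 falls among 12 genes, the chromatin-bound factor Utf1 (0.46) and Tex19.1, which restrains retrotransposons (0.48). Both lost their calls without any 1 of the 4 arrays. Pou5f1 gave -0.30 (adjusted p = 0.101), which passed without background correction, with the authors' values, with offset 50 and with trend and robust moderation (adjusted p down to 0.0152), and Sox2 -0.32 (adjusted p = 0.122 from limma).

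Of 12 genes of epiblast priming, Otx2 was the 1 called, a share near the 7.74% over all genes tested. The median of the list was 0.23. Without background correction, with the authors' values, with offset 50 and with trend and robust moderation 4 of the 12 were called higher, and the median without background correction was 0.10. Fgf5, a growth factor of the primed epiblast, read 5.06 and 4.92 at 0 h and 5.34 and 5.51 at 12 h, a difference of 0.44 that missed the threshold (adjusted p = 0.0552 from limma). Fitted on the arrays compared alone, it passed (adjusted p = 0.0369 from limma). The adhesion molecule Cdh1 differed by -0.06 (adjusted p = 0.816 from limma). Both it and Tcf15 changed sign under median scaling, to 0.03 and 0.05.

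Among 12 bHLH partners and Id inhibitors, 4 rose and 1 fell, beside 3.04% and 4.7% of all genes tested. Id3 read 7.03 and 6.92 at 0 h and 7.78 and 7.87 at 12 h, and Id1 read 10.79 and 10.44 at 0 h and 11.02 and 11.09 at 12 h. Id1 rose by 0.44 (adjusted p = 0.041 from limma), a call that was lost without 0 h replicate 2 or without either 12 h array (adjusted p of up to 0.289 from limma). The tested probe of Id2 gave 0.15 (adjusted p = 0.501 from limma), and its 2 dimmer probes gave 0.49 and 0.34. The bHLH repressor Hes6 rose by 0.74, and Msc, a bHLH repressor of muscle genes, fell by 0.63 on the log2 scale.

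Calls in the signalling lists stood at 1 of 13 for FGF and ERK feedback, 1 of 6 for FGF ligands and receptors, 3 of 11 for NODAL and BMP, 1 of 9 for WNT targets, 2 of 9 for NOTCH and 2 of 12 for LIF and STAT3, beside 7.74% over all genes tested. Dusp4, a phosphatase that restrains ERK, was the 1 of 13 FGF and ERK feedback genes that rose (8.29 and 8.28 at 0 h, 8.99 and 8.95 at 12 h, a difference of 0.69). Its other probes gave 0.65 and 0.34, the last not called (adjusted p = 0.17 from limma). In this list 12 of the 13 differences were above 0, with a median of 0.30. Fgfbp1, which releases FGFs from the matrix, rose by 0.70. The NOTCH ligand Dll1, not well above background at 0 h, was at least 1.58-fold higher at 12 h. Notch1 fell by 0.49 on the log2 scale, the WNT target Axin2 rose by 0.65, Socs3, a feedback inhibitor of LIF signalling, rose by 0.46, and the NODAL antagonist Lefty2 fell by 0.67. These 4 calls were lost when 1 of several single arrays was left out. Of 13 genes of the integrated stress response, Atf4, its central transcription factor, fell by 0.75 and Ddit3 by 0.41, while Ddit4 rose by 0.44; each lost its call without at least 1 single array.

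Several further lists held falls, beside 4.7% of all genes tested called lower. Of 15 large cytoskeletal linkers and scaffolds, 9 fell and 0 rose, with a median of -0.64. Besides Dst, Akap9, Golgb1, Ahnak and Golga4, the centrosome scaffold Pcnt read 7.25 and 7.04 at 0 h and 6.17 and 6.24 at 12 h (-0.94). Between 6 and 8 of the 15 were called with 1 array left out and 7 under median scaling. Of 25 kinesin, myosin and dynein motors, 6 fell and 0 rose, with a median of -0.22. Among them the dynein heavy chain Dync1h1 read 8.40 and 8.74 at 0 h and 7.66 and 7.67 at 12 h (-0.91). The myosins Myh10, Myo9b and Myo5a fell by 0.86, 0.60 and 0.53, and the call of Myo5a was lost without 0 h replicate 2 or without either 12 h array.

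Of 29 chromatin modifiers and remodellers, 14 fell and 0 rose, with a median of -0.40, beside 4.7% of all genes tested called lower. Without 12 h replicate 1 the list held 5 falls, between 9 and 10 without any other single array, and 10 under median scaling. The H3K4 methyltransferase Kmt2c read 8.44 and 8.36 at 0 h and 7.53 and 7.53 at 12 h (-0.87). The chromatin reader Kmt2e (-0.90), the NURF subunit Bptf (-0.89), the remodeller Chd2 (-0.89), the corepressor Spen (-0.89) and the H3K4 methyltransferase Setd1b (-0.75) also fell. Kmt2e and Bptf lost their calls without 12 h replicate 1, and Bptf also without 0 h replicate 1. The 3 core subunits of Polycomb complex 2, named after their values were seen, were not called: Ezh2 gave 0.07, Suz12 -0.05 and Eed -0.40 (adjusted p = 0.188 from limma).

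Of 5 nuclear noncoding RNAs tested, 4 fell and 0 rose, beside 4.7% of all genes tested called lower. Snhg5, the host of small nucleolar RNAs, read 8.68 and 8.56 at 0 h and 7.76 and 7.75 at 12 h (-0.86), Snhg12 fell by 0.51 and Miat was at least 1.55-fold lower. The call of Snhg12 was lost without any 1 of the 4 arrays. The median of the list was -0.86, or -0.63 with dim genes set at their bound. Among 24 SR splicing factors and other nuclear RNA-binding proteins, Pnisr (-0.81), Srrm2 (-0.66) and Srsf5 (-0.49) fell, the last losing its call without any 1 of the 4 arrays. The median of this list was -0.07 and changed sign under median scaling, to 0.03.

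Of 15 genes of basement membrane and matrix, 6 fell and 1 rose, with a median of -0.33, beside 4.7% and 3.04% of all genes tested. The laminin chain Lama1 read 7.77 and 7.93 at 0 h and 6.82 and 7.03 at 12 h (-0.93). The laminin chain Lama5 (-0.50), the collagen Col4a1 (-0.59) and fibronectin, encoded by Fn1 (-0.57), fell as well. A second probe of Fn1, detected on 1 of the 2 arrays at 12 h, gave -0.27 and was not called (adjusted p = 0.242 from limma). Tgfbi, a matrix protein, rose from 6.36 and 6.33 to 7.15 and 7.09 (0.78). Its second probe, detected on 1 of the 2 arrays of each group, gave 0.24 and was not called (adjusted p = 0.309 from limma). Between 2 and 5 of the 6 falls were called with 1 array left out, and 2 under median scaling. The primitive endoderm list shares Lama1 and Col4a1 with this list. It held 3 falls of 10, the third being the endocytic adaptor Dab2 (-0.46), whose call was lost without any 1 of the 4 arrays. A second probe of Dab2 gave -0.28 and was not called (adjusted p = 0.218 from limma).

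In lists of housekeeping genes, 0 of 23 cytosolic ribosomal protein genes, 0 of 30 nuclear genes of respiratory complexes, 0 of 25 proteasome subunits, 0 of 17 glycolysis genes and 0 of 10 cholesterol synthesis genes were called by limma. Over all genes tested 7.74% were called, so 0 calls in a single list of 10 to 30 genes says little. The medians of the ribosomal, respiratory and proteasome lists were -0.01, 0.07 and 0.08. Of 15 DNA replication genes, Rfc1, a clamp loader subunit, was the 1 called (-0.62), a share near the 7.74% over all genes tested. Of 13 mitosis genes, the kinase Aurka rose (0.42) and Kif23 (-0.46) and Cenpf (-0.44) fell. All 4 lost their calls without at least 1 single array. Other probes of Kif23, detected on each 0 h and 12 h array, gave 0.10 and -0.28.

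**Figure D4:**
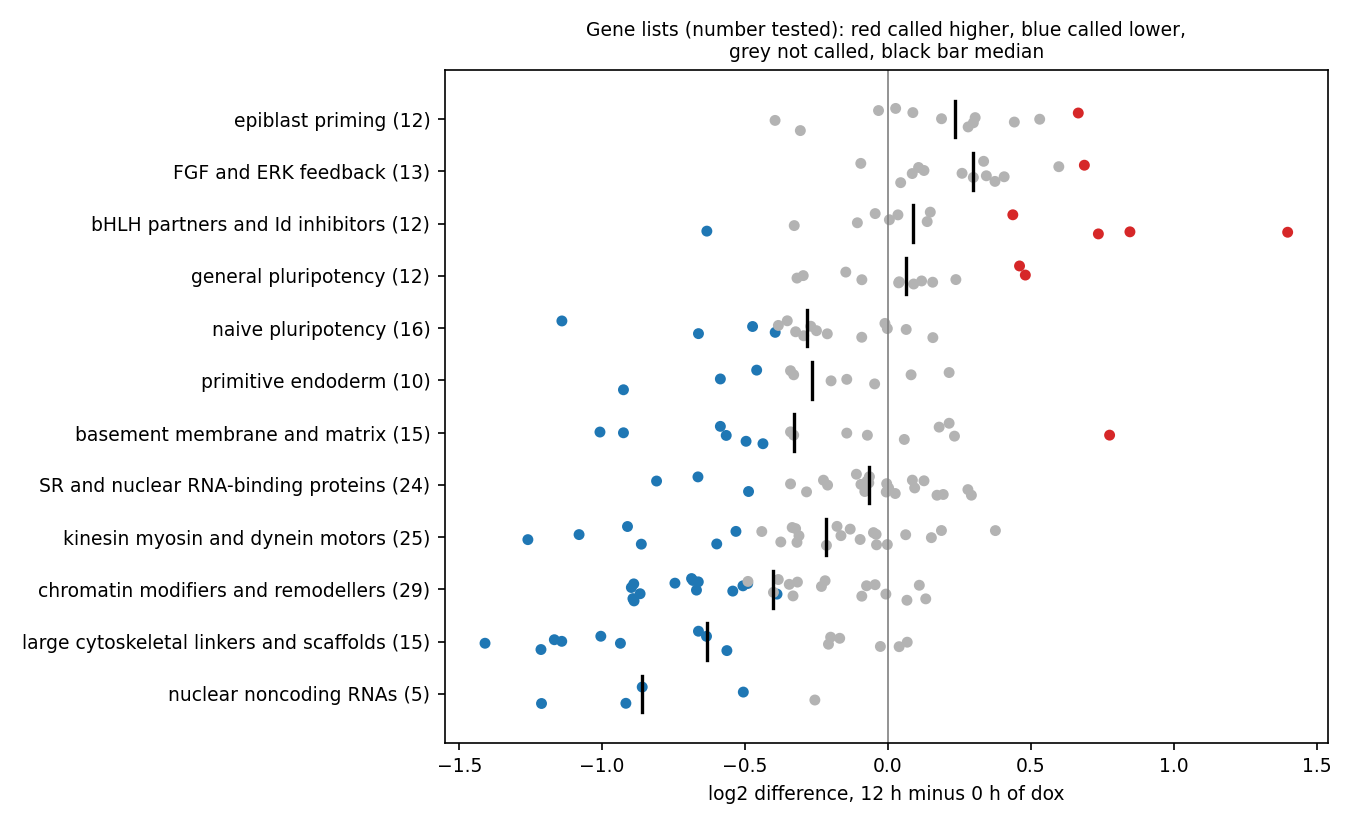
Log2 difference between 12 and 0 h of dox of each tested gene in 12 gene lists, with the number tested in brackets. Red points were called higher and blue points lower, and black bars are medians, which run from 0.30 for FGF and ERK feedback genes to -0.86 for nuclear noncoding RNAs.

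Genes that fell had longer spans in the median than genes that rose. By RefSeq's annotation of GRCm38.p6, the median span from first to last base of a gene was 45.9 kb for the 382 named genes called lower, 14.5 kb for the 264 called higher and 21.5 kb over 8529 named genes tested. In the quintile of genes with the shortest spans, 3.11% fell and 4.69% rose. In the quintile with the longest spans, 9.32% fell and 1.41% rose. The median differences of these quintiles were 0.06 and -0.05. Of the lists with falls, the median span was 135 kb for linkers and scaffolds, 88.1 kb for motors, 71.2 kb for chromatin modifiers and 74.7 kb for basement membrane and matrix. The linkers and scaffolds were put together as a list of large proteins, so their span is a description. The span was 9.54 kb for naive pluripotency genes and 15.7 kb for nuclear noncoding RNAs, the list with the highest share of falls, both under the 21.5 kb of all genes.

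The larger share of falls among long genes also held within each quintile of expression level, for example 13.9% of the longest against 4.98% of the shortest in the next-to-highest quintile of level. That comparison within levels was made on all arrays. Over all levels, with 1 array left out, the share of falls was between 2.29% and 4.57% of the longest against 0.938% to 1.41% of the shortest, and under median scaling 4.28% against 1.29%. The part of gene length or RNA quality in the falls of these lists was not tested.

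**Figure D5:**
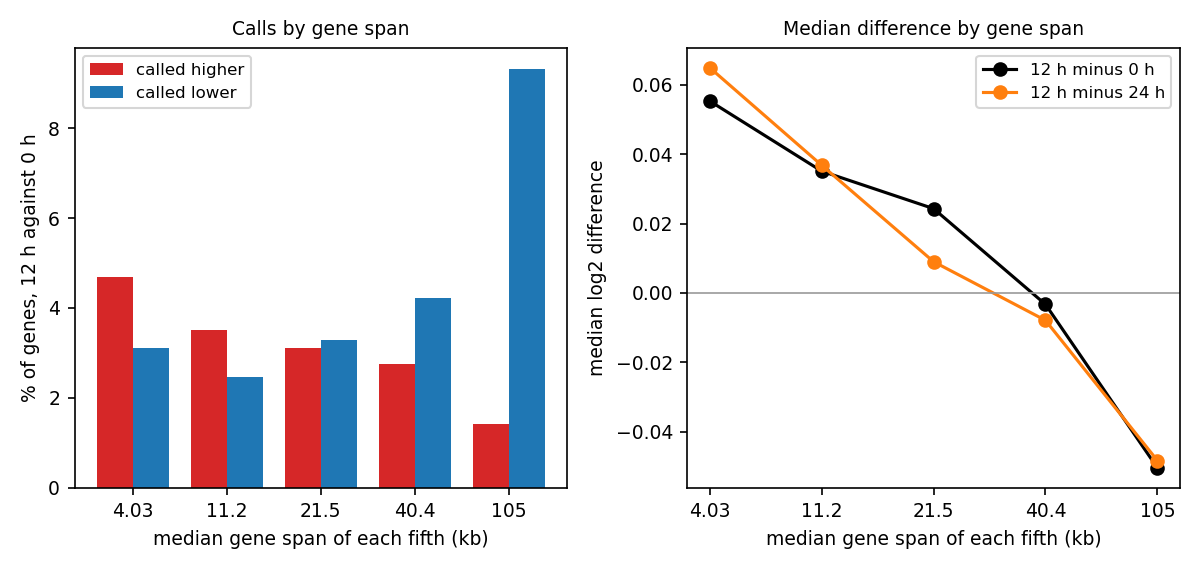
Left, percent of genes called higher (red) and lower (blue) at 12 h against 0 h in quintiles of gene span, labelled by the median span of the quintile in kb. Right, median log2 difference of the same quintiles for 12 h against 0 h (black) and against 24 h (orange); the share called lower is 9.32% in the longest quintile.

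The neighbouring times place these changes. At 12 h against 8 h, 429 genes were called (4.25%), 142 higher (1.41%) and 287 lower (2.84%). Without 1 array these counts were 12 and 58 (without 12 h replicate 1), 29 and 98 (12 h replicate 2), 23 and 77 (8 h replicate 1) or 32 and 113 (8 h replicate 2), and median scaling gave 70 and 128. Of the 307 genes above 0 h, 107 were also above 8 h, and of the 474 below 0 h, 250 were also below 8 h. These comparisons share the 12 h arrays. The 307 rises had medians of 0.14 at 8 h, 0.49 at 12 h and 0.28 at 24 h against 0 h, and the 474 falls had -0.08, -0.54 and -0.30. The 12 h values chose these genes, so their size at 12 h is a description.

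Nanog read 10.55 and 10.58 at 8 h and 10.05 and 10.01 at 24 h, and at 12 h it lay below 8 h by a difference of -0.69 (adjusted p = 0.00166 from limma). Otx2 read 8.97 and 8.99 at 8 h and differed by 0.70 between 12 and 8 h (adjusted p = 0.00304 from limma). Kif1a read 7.12 and 7.22 at 8 h and 6.82 and 6.90 at 24 h, and its 12 h arrays lay below both times (-1.23, adjusted p = 0.00028, and -0.92, adjusted p = 0.00253, from limma). Endothelin 2, encoded by Edn2, read 7.43 and 7.51 at 0 h, 7.24 and 7.13 at 8 h, 8.31 and 8.08 at 12 h and 7.84 and 7.69 at 24 h, the largest rise from 8 h (1.01).

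At 12 h against 24 h, 187 genes were called (1.85%), 93 higher (0.921%) and 94 lower (0.931%). Without 12 h replicate 1 these counts were 1 and 2, without 12 h replicate 2 they were 5 and 3, without 24 h replicate 1 they were 13 and 14, and without 24 h replicate 2 they were 5 and 5. Of the genes that fell from 0 to 12 h, 59 lay below 24 h and 3 above it. Of those that rose, 32 lay above 24 h and 1 below it. The 12 h arrays that chose these genes also enter this comparison, so the lean is partly set by that choice. Myh9 read 7.38 and 7.53 at 12 h and 8.48 and 8.21 at 24 h (-0.89), and Atf4 read 9.72 and 9.75 at 12 h and 10.65 and 10.33 at 24 h (-0.75). Napsa, an aspartic protease, was the highest above 24 h (1.05), but its 0 and 12 h arrays overlapped.

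Against the 8 h response of parental cells, the 12 h response differed in 202 genes (2%), 72 higher (0.713%) and 130 lower (1.29%). With 1 of the 8 arrays left out, 10 to 89 were higher and 42 to 139 lower, both lowest without 12 h replicate 1 and highest without parental 0 h replicate 1, and median scaling gave 25 and 69. The times differ, so dox time and construct cannot be told apart in this comparison. Of the 307 rises, 68 were also called here, Prr19 (1.91) and Ccno (1.20) among them, and of the 474 falls, 124, with Dst (-1.95) and Nanog (-1.33). The comparison shares the 12 and 0 h arrays. In parental cells the medians of the 307 and the 474 genes were -0.02 and 0.03 at 8 h against 0 h. There Dst differed by 0.54 and Nanog by 0.19, opposite in sign to their 12 h falls, which enlarges their values in this comparison.

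Sequences just before the start of 4 of the genes are shown because they differ in the E-boxes searched here, a part of the motif class that bHLH dimers bind. They come from RefSeq's promoters on GRCm38.p6, are all on the plus strand, and span chr7:25301109-25301358 for Prr19, chr7:25305858-25306107 for its neighbour Tmem145, chr13:112987552-112987801 for Ccno and chr6:122707239-122707488 for Nanog. Capitals mark CAGCTG and CAGGTG or its complement CACCTG, searched on both strands. Other E-boxes were not searched and stay in small letters, such as caagtg in Prr19.
Prr19: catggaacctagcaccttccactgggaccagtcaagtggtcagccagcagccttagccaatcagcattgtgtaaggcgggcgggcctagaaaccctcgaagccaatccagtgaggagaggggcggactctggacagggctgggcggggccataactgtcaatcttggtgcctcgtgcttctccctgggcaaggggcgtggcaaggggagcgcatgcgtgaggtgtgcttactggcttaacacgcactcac
Ccno: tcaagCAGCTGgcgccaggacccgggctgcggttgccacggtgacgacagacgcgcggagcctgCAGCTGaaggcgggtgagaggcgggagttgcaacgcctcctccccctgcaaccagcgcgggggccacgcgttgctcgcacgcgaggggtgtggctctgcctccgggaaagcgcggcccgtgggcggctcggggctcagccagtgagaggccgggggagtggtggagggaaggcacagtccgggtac
Tmem145: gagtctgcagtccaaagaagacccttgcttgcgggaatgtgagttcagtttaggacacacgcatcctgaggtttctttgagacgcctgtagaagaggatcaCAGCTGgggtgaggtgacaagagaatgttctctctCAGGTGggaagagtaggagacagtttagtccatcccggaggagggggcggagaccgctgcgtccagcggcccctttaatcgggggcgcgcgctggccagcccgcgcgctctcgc
Nanog: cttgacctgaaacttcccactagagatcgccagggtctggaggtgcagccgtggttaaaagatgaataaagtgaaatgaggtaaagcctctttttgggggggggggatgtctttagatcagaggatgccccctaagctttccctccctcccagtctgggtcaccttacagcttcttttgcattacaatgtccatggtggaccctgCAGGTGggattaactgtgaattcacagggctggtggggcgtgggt
Prr19 held 0 of these motifs, Ccno 2, at 245 and 186 bases before the start, Tmem145 2, at 149 and 114 bases, and Nanog 1, at 45 bases. In RefSeq's order, 0 genes lie between Prr19 and Tmem145, both of which rose. At least 1 of the motifs stood in these 250 bases in 66 of 222 genes called higher (29.7%), 84 of 300 called lower (28%) and 24.2% of 6990 named genes tested with a promoter in the table. CAGCTG alone stood in 16.2%, 11% and 10.8%. A match describes letters in the window and is not evidence of binding.

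The authors' deposited table of comparisons called 523 probes higher (1.36%) and 547 lower (1.42%) at 12 h against 0 h, of 38561. Of its calls, 844 were on probes tested here, and 609 were called in both, all 609 with the same sign. These are 78% of the calls made here and 72.2% of those 844. In the authors' deposited table, Prr19 differed by 1.01 log2 units on values without background correction.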

How the data were processed

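Per the labels' protocols, biotin-labelled cRNA was made from total RNA and read on BeadChips. Per the file headers, the authors deposited a table of bead signal intensity with a detection p-value for each entry, a table of normalized log2 values and a table of comparisons with log2 fold changes and adjusted p-values; per the submitters' processing notes limma was used, with no version given. The 30854 entries of the intensity table share 0 names with the 38561 probes of the normalized table, so entries were matched to probes by value on all 12 arrays. This matched 16809 entries, and 8405 held-out entries all found their probe again. These had a clear match from the start, so the check does not cover the others. Curves fitted through the matched entries of each array then gave the signal and detection p-value of all 38561 probes. Signals and detection p-values of probes without a match are thus read from a curve, and 485 probes lay beyond the matched range on an array.

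Background correction and quantile normalization used neqc (offset 16) from limma 3.58.1 under R 4.3.3. Probes were kept where 2 or more arrays had a detection p under 0.01, with 1 probe per gene, the brightest, leaving 8537 named genes and 1556 probes without a gene name. Of all probes 32093 had 1 gene symbol in the platform annotation, 16 several and 6452 none. A group-means model (lmFit, eBayes, two-sided) was fitted over 6 groups, with Benjamini-Hochberg adjustment over all 10093. Data for 12 h against 0 h over these 10093 genes were also simulated, with 200 genes changed and noise drawn independently for each gene. There, 50% of changes of 0.5 log2 units and 95% of changes of 1 log2 unit were called. The real comparison held 781 calls, so these shares describe the simulated setting only. Precision is limited by 2 arrays per group.

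The genes named were the 15 largest rises and falls whose arrays did not overlap, a fixed set of bHLH, Id and pluripotency genes, up to 6 called members of each list, and the 5 largest each way in the other comparisons. The markers and gene lists were chosen with earlier results of these data known. Alternatives changed the background correction, scaling, offset, filter, probes, moderation and arrays used, and fitted the replicate number as a block. Same-numbered arrays of different groups correlated at -0.03 to 0.17 in their deviations from group means. Of 7 pairs of groups, 3 were over 0.1 and none of these held the 12 h arrays, so the numbers were not taken as pairs. A slide block was not run, since the headers give no slide.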

Additional observations from a re-analysis of the deposited data

Results flagged for a closer look

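Expression at 12 h of dox differed from that at the neighbouring times, by limma's contrasts of the times themselves. Against 24 h, 93 genes were higher and 94 lower, and against 8 h, 142 were higher and 287 lower. No parental cells had 12 or 24 h of dox, so dox and other differences between these groups cannot be told apart. Values are log2 differences, 12 h minus the other time, each called at an adjusted p under 0.05.

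Above 24 h lay Ms4a10 (0.60), Rapgef5 (0.49), Ccdc3 (0.46), Cyp11a1 (0.77), Neurog3 (0.81), Spink1 (0.82), Hopx (0.86) and Napsa (1.05). Below 24 h lay Kif1a (-0.92), Akap9 (-0.53), Elavl3 (-0.51), Golgb1 (-0.60), Ahnak (-0.60), Myh9 (-0.89), Atf4 (-0.75), Dync1h1 (-0.51), Myh10 (-0.70), Srrm2 (-0.54), Chd2 (-0.48), Gbp2b (-0.54), Gbp2 (-1.01), Sptbn1 (-0.91) and Dido1 (-0.86). Golga4, not well above background at 12 h, was at least 1.08-fold lower there than at 24 h. With 1 of the 4 arrays left out, 1 to 13 genes were called higher and 2 to 14 lower between these times.

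Above 8 h lay Prr19 (0.96), Ccno (0.45), Tafa4 (0.78), Rxrg (0.70), Gm525 (0.74), Slc43a1 (0.61), Ms4a10 (0.66), Rapgef5 (0.66), Dpp4 (0.61), 2610528J11Rik (0.77), Ccdc3 (0.82) and Edn2 (1.01). Below 8 h lay Dst (-1.22), Kif1a (-1.23), Akap9 (-1.14), Neat1 (-0.89), Elavl3 (-0.96), Golgb1 (-1.07), Ahnak (-1.0), Nanog (-0.69), 2410006H16Rik (-0.94), Myh9 (-0.82), Snhg16 (-1.01), Hspg2 (-1.06), Ankrd11 (-0.88) and Sfrp1 (-0.81). Golga4 was at least 1.39-fold lower at 12 h than at 8 h. With 1 of these 4 arrays left out, 12 to 32 genes were called higher and 58 to 113 lower. The calls of Nanog and Kif1a stand beside the falls of both genes from 0 to 12 h, and these contrasts share the 12 h arrays with that comparison.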

How the results depend on the processing

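Of 96 named genes called at 12 h against 0 h, 46 kept their call with any single compared array left out and 65 under every other alternative. Called higher at 12 h against 0 h were 479 genes without background correction, 490 with the authors' values, 463 with offset 50 and 466 with trend and robust moderation; median scaling gave 205 lower. Leaving out 1 array gave 58 to 112 higher and 127 to 204 lower. Against 8 h, in that order, 275, 280, 270 and 280 genes were higher, with 433 (offset 50) and 466 (moderation) lower; median scaling gave 70 higher and 128 lower, and single arrays left out 12 to 32 and 58 to 113. Against 24 h the same 4 settings gave 179, 182, 180 and 185 higher and 186, 184, 205 and 222 lower. Median scaling gave 11 and 12, no detection filter 54 and 55, only the arrays compared 21 and 26, and single arrays left out 1 to 13 and 2 to 14. Against the parental response they gave 167, 174, 159 and 166 higher and 256, 246, 272 and 299 lower. Median scaling gave 25 and 69, only the arrays compared 36 and 86, no filter 82 lower, and single arrays left out 10 to 89 and 42 to 139. The cause of these shifts was not tested. Under median scaling Tcf15 and Cdh1 reversed to 0.0536 and 0.0278, and the median of all genes was 0.06 against 0.01. With the replicate block, 304 genes were higher and 466 lower at 12 h against 0 h, 134 and 276 against 8 h, 72 and 74 against 24 h and 59 and 113 against the parental response. Same-numbered arrays of 0 and 12 h correlated at 0.02 in their deviations. Of 468 list medians recomputed, 103 moved by more than the spread. About 1 in 3 probes was detected, so dim genes are limited by signal close to background.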
